A study of Mus musculus with 4 samples.

Results

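Interferon regulatory factors (IRFs) and signal transducers and activators of transcription (STATs) were described here through 8 genes: Irf1, Irf2, Irf3, Irf7, Irf8, Irf9, Stat2 and Stat3. They were chosen by symbol, with earlier results of these data known, and each matched 1 of the 31253 gene rows of the series. The cells were RFP-positive cells sorted from the left ventricle of mice in which a Cdh5-driven, tamoxifen-inducible Cre switches on a red reporter in endothelial cells (ECs). The series holds 2 groups of 2 single-cell 3′ libraries. The NC group (NC 1 and NC 2) received a control diet, here called Chow. The paper's methods describe it as a rodent diet low in fat, given with normal water. The HFpEF group (HFpEF 1 and HFpEF 2) received a high-fat diet plus the nitric oxide synthase inhibitor L-NAME. This regimen models heart failure with preserved ejection fraction. The paper's methods describe mice on a C57BL/6N background that also carry floxed SR-B1 alleles, and within each diet the paper sets mice with 1 floxed SR-B1 allele beside mice with 2, whose ECs lose SR-B1. The labels give neither the genotype, the age nor the number of mice behind a library. The 2 libraries of a diet may therefore differ in genotype rather than repeat one another, genotype could not be entered in any test, and p-values measured only the spread between libraries.

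IRFs and STATs carry interferon and cytokine signals to DNA. Type I interferon leads to a complex known as ISGF3, which holds STAT2 and IRF9 and drives antiviral genes and Irf7. IRF3 and IRF7 act one step earlier, since they switch on the interferon genes after nucleic acid sensing. Interferon gamma acts on GAS elements and induces Irf1, whose targets include guanylate-binding proteins, the antigen presentation machinery and the chemokines Cxcl9 and Cxcl10. IRF2 binds many of the same sites as IRF1 and can oppose it. IRF8 is best known from myeloid and B cells, and STAT3 carries signals of the interleukin 6 family and induces its own inhibitor Socs3.

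After cells with 200 genes or fewer, or with 20% or more mitochondrial UMIs, were left out, 40154 cells remained, of which 36805 were ECs by their markers. The libraries held 5454 to 20882 kept cells and 10801149 to 47117650 UMIs. Depth differed with diet, with a median of 3754 and 4127 UMIs per cell in the NC libraries and of 1736.5 and 1619 in the HFpEF libraries. The 4 erythroid markers, all hemoglobin genes, differed with diet too, and the source of their RNA was not tested. CPM are the UMIs of a gene or list per 1e6 UMIs of the class in that library. In capillary ECs the markers were at 494 and 247 CPM in NC 1 and NC 2. They were at 618 and 1763 CPM there in HFpEF 1 and HFpEF 2. In artery ECs the NC libraries held 0.94 and 6.20 CPM, against 322 and 323 CPM in the HFpEF libraries. Each of 3 clusters counted as capillary and led by hemoglobin genes held 1.18% to 6.91% of the cells of an NC library. In an HFpEF library each held 10.3% to 15.9%. These clusters were also shallow, with medians of 919, 1549 and 838 UMIs per cell, against 2224.5 to 4453 in the other capillary clusters. The one at 838 also had Myl2, a cardiomyocyte marker, and Myl3, Fabp3, Mb and Tnnc1 among its leading genes. A cluster counted as capillary when it met no rule for another class. Where classes were taken from clusters, these cells were therefore among the capillary ECs. The parts of depth and hemoglobin RNA in their shares were not tested. Pairs of libraries shared 10 to 42 cell barcodes. Marker genes divided the ECs into 28853 capillary, 4715 artery and 854 vein ECs and several small classes, and a further 1293 cells were mural-like (pericyte and smooth muscle markers). The 7 endothelial markers were found in every one of these classes, at a summed 4250 to 6654 CPM in capillary, artery and vein ECs. They reached 2621 to 3056 CPM in mural-like cells, so mural-like values hold endothelial RNA whose part was not tested.

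The genes lie on GRCm38 (mm10) at chromosome 11:53770014-53778374 for Irf1, 8:46739732-46847458 for Irf2, 7:44997648-45002848 for Irf3, 7:141262706-141266481 for Irf7, 8:120736358-120756694 for Irf8, 14:55603571-55610030 for Irf9, 10:128270559-128292849 for Stat2 and 11:100885098-100939540 for Stat3. Irf7 and Stat3 are on the minus strand, and all are protein coding. Their RefSeq promoter windows (GRCm38.p6, 250 bases before to 50 after a start) were searched on both strands for a GAS element, TTCNNNGAA, and an IRF element, GAAANNGAA. The upstream stretches of Irf1, Irf8 and Stat2 are shown as examples of windows with a match. As described further on, Irf1 and Irf8 varied together between cells, and Stat2 varied with the ISGF3 targets. Irf7 and Irf9 also varied with these targets, and their windows held no match, so the stretches shown give no link between match and variation. Capitals mark the matches.
Irf1, chr11:53769764-53770013, plus strand: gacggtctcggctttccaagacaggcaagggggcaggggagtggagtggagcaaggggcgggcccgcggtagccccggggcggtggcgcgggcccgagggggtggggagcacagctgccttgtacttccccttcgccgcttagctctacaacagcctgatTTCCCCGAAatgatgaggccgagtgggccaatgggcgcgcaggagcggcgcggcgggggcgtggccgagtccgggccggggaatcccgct
Irf8, chr8:120736108-120736357, plus strand: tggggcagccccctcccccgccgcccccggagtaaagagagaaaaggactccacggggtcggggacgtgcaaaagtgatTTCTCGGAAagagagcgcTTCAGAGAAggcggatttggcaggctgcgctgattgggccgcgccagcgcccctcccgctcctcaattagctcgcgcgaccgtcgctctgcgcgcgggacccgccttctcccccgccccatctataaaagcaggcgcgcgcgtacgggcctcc
Stat2, chr10:128270248-128270497, plus strand: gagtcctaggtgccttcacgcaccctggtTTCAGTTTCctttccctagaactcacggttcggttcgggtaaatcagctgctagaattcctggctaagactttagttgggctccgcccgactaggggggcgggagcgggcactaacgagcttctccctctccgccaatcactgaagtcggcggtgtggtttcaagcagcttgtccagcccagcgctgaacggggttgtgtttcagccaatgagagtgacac

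Irf1 held 1 GAS match whose first base lay at -90 from the start, and Irf8 held 2, at -171 and -153. Another window each of Irf1 and Irf8 held no match. The Stat2 window had an IRF element at -221, read on the opposite strand. The window of Irf2 held a GAS match at -224 and an IRF element at -241. No window of Irf3, Irf7, Irf9 or Stat3 held either string of letters. Of 32851 promoter windows of this length, 8.30% held the GAS letters and 8.56% the IRF letters, and a match is a description of these letters, not of a binding site.

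Across the vessel classes, Irf8 differed most. In capillary ECs it was at 60.6 CPM in NC 1, 46.7 in NC 2, 65.0 in HFpEF 1 and 67.4 in HFpEF 2. In artery ECs the same libraries gave 20.3, 9.8, 27.3 and 24.3 CPM. Every artery value lay under every capillary value. Within libraries, Irf8 was lower in artery than in capillary ECs by a log2 fold change of -1.68 ± 0.10 (SE, 4 libraries, edgeR's quasi-likelihood test, Benjamini-Hochberg adjusted p = 4.6e-11), which is 3.20-fold lower. Markers of myeloid cells, where Irf8 is best known, summed to 19.5 to 25.8 CPM in capillary and 16.5 to 25.5 CPM in artery ECs, and those of B cells to at most 1.66 and 1.65 CPM. Cells that passed the myeloid or B cell gate had been left out of both classes beforehand, so low sums were partly set by the gates. How much Irf8 RNA came from leukocytes was not tested. Vein ECs held 65.0, 28.2, 102 and 58.3 CPM of Irf8 in the same library order, from 58, 24, 23 and 73 UMIs, and overlapped with capillary ECs (log2 fold change -0.19 ± 0.13, edgeR adjusted p = 0.39). With classes taken from clusters of cells in place of marker gates, that difference was -0.42 and was called (edgeR adjusted p = 0.00016).

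Irf1 ran the other way. Its capillary level was 382, 449, 445 and 550 CPM in NC 1, NC 2, HFpEF 1 and HFpEF 2. Artery ECs reached 474, 735, 597 and 664 CPM, and vein ECs 695, 655, 653 and 662.5 CPM. Both were above the capillary value of the same library in 4 of 4 libraries. The log2 fold change over capillary ECs was 0.38 ± 0.05 in artery ECs (edgeR adjusted p = 1.4e-05) and 0.46 ± 0.07 in vein ECs (edgeR adjusted p = 7.2e-06). The vein difference fell to 0.23 (edgeR adjusted p = 0.096) when cells were thinned to 1000 UMIs. Stat3 followed the same order, from 152 to 193 CPM in capillary, 206 to 232 in artery and 164 to 276 in vein ECs. It was higher than in capillary ECs by 0.29 ± 0.05 on the log2 scale in artery ECs (edgeR adjusted p = 5.6e-05) and by 0.30 ± 0.08 in vein ECs (edgeR adjusted p = 0.0077), the latter not called without HFpEF 2 (0.22, edgeR adjusted p = 0.19).

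Among the genes of the type I interferon arm, Irf7 was at 84.8, 103, 98.7 and 110 CPM in capillary ECs, against 61.6, 68.3, 71.1 and 89.5 CPM in vein ECs. Vein ECs were thus lower in 4 of 4 libraries (log2 fold change -0.52 ± 0.10, edgeR adjusted p = 0.00016), although the call was lost in thinned cells (-0.50, edgeR adjusted p = 0.069). Artery ECs held 98.2, 110, 152 and 136 CPM of Irf7. That was higher by 0.22 ± 0.06 on the log2 scale (edgeR adjusted p = 0.012), but not with DESeq2 (adjusted p = 0.061), with classes taken from clusters (0.03, edgeR adjusted p = 0.71), without HFpEF 1 (0.16, edgeR adjusted p = 0.067) or without HFpEF 2 (0.20, edgeR adjusted p = 0.077). Irf9 and Stat2, which code for parts of ISGF3, were not called between capillary and either artery or vein ECs. Stat2 stood at 40.4 to 48.5 CPM in capillary, 39.6 to 56.7 in artery and 44.7 to 66.1 in vein ECs. Its vein difference of 0.17 ± 0.13 turned to -0.24, called with an edgeR adjusted p of 0.040, when classes came from clusters.

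Irf2, the antagonist of IRF1, and Irf3, which acts after nucleic acid sensing, were lower in vein than in capillary ECs. Irf2 was at 117 to 122 CPM in capillary and 75.6 to 117 CPM in vein ECs (log2 fold change -0.36 ± 0.10, edgeR adjusted p = 0.0062). Irf3 was at 36.8 to 46.0 and 25.8 to 35.6 CPM (-0.50 ± 0.16, edgeR adjusted p = 0.019), on 8 to 44 UMIs per vein library. In thinned cells the vein differences were -0.35 for Irf2 and -0.12 for Irf3, with edgeR adjusted p of 0.20 and 0.89. In artery ECs neither was called, although Irf2 was lower with classes from clusters (-0.14, edgeR adjusted p = 0.045). The Irf3 call also did not hold with DESeq2 (adjusted p = 0.12), without NC 1 (-0.35, edgeR adjusted p = 0.24) or without NC 2 (-0.44, edgeR adjusted p = 0.10).

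Mural-like cells held less of 4 genes than capillary ECs. Irf7 differed by -0.48 ± 0.10 on the log2 scale, Irf2 by -0.45 ± 0.08, Irf9 by -0.37 ± 0.09 and Irf3 by -0.29 ± 0.12, with edgeR adjusted p of 0.00038, 8.3e-05, 0.0016 and 0.043. All 4 were lower in 4 of 4 libraries. Irf9 and Irf3 were not called in thinned cells (edgeR adjusted p = 0.063 and 0.094). Irf3 was also not called with DESeq2 (adjusted p = 0.15) or without any of NC 1, HFpEF 1 and HFpEF 2 (edgeR adjusted p = 0.16, 0.13 and 0.070). Irf1 (368 to 564 CPM), Irf8 (38.4 to 89.0), Stat2 (38.8 to 55.3) and Stat3 (194 to 249.3) were not called in mural-like cells. Irf8 was called lower without doublets (-0.29, edgeR adjusted p = 0.048), with classes from clusters (-0.34, 0.014), without a filter on low counts (-0.32, 0.0064) and without HFpEF 1 (-0.40, 0.0066). Stat3 was called higher with classes from clusters (0.20, edgeR adjusted p = 0.025) and without HFpEF 2 (0.30, 0.0015).

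Of the 8 genes, 4 were called between artery and capillary ECs, 5 between vein and capillary ECs and 4 between mural-like cells and capillary ECs. Over all genes tested, calls reached 30.1% in artery ECs (3458 of 11492), 21.6% in vein ECs (2462 of 11376) and 47.4% in mural-like cells (5616 of 11849). The lists of target genes differed in their own way. Of the interferon gamma and IRF1 targets, 5 were higher and 11 lower in artery than in capillary ECs (25 tested). In vein ECs 5 were higher and 5 lower (25 tested), and in mural-like cells 0 and 23 (24 tested). Of the STAT3 targets, 14 were higher and 3 lower in vein ECs (19 tested, median log2 fold change 0.59), beside a median of -0.01 over all genes. In artery ECs 7 were higher and 3 lower, and in mural-like cells 4 and 4, of 18 tested in each. Of the ISGF3 targets, 5 were higher and 1 lower in artery ECs. In vein ECs 3 were higher and 8 lower, and in mural-like cells 1 and 19, of 24 tested in each.

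**Figure D1:**
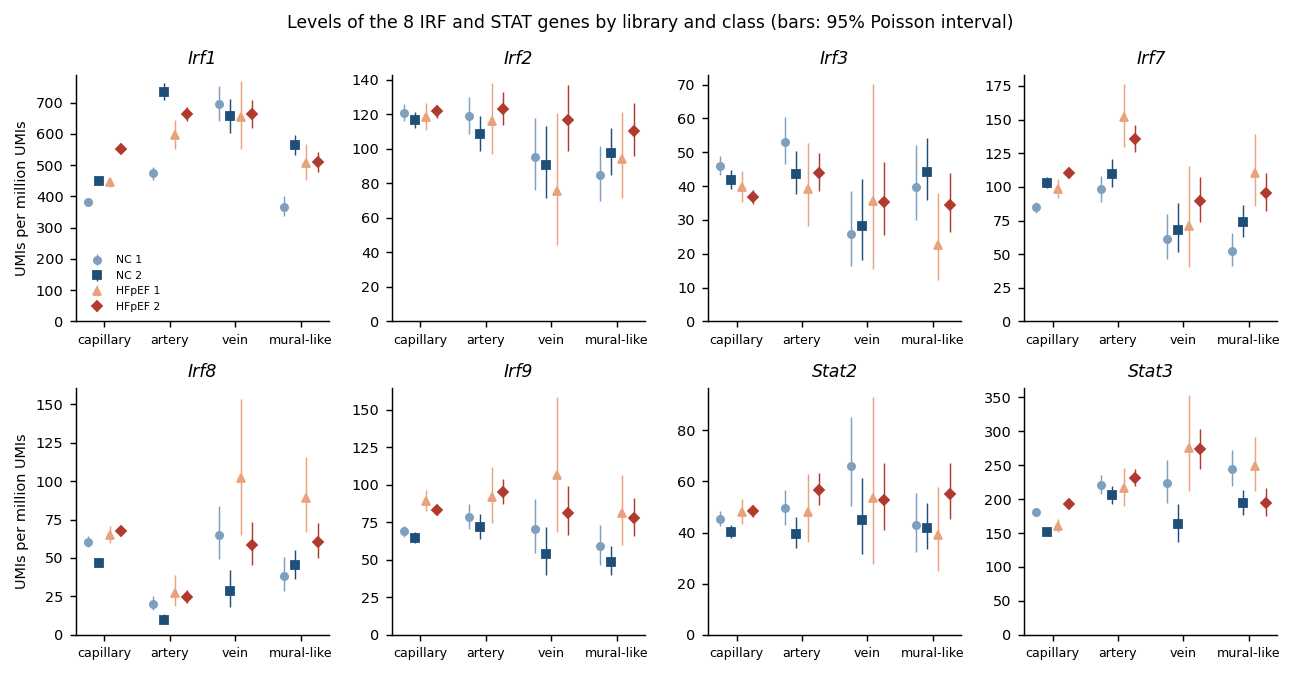
Levels of each gene (vertical axis, CPM of the class) in capillary, artery, vein and mural-like cells (horizontal axis), 1 point per library (NC 1, NC 2, HFpEF 1, HFpEF 2) with a 95% Poisson interval that covers counting error only. Irf8 lies between 9.8 and 27.3 in artery ECs and between 46.7 and 67.4 in capillary ECs, while Irf1 is higher in artery and vein than in capillary ECs of the same library.

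**Figure D2:**
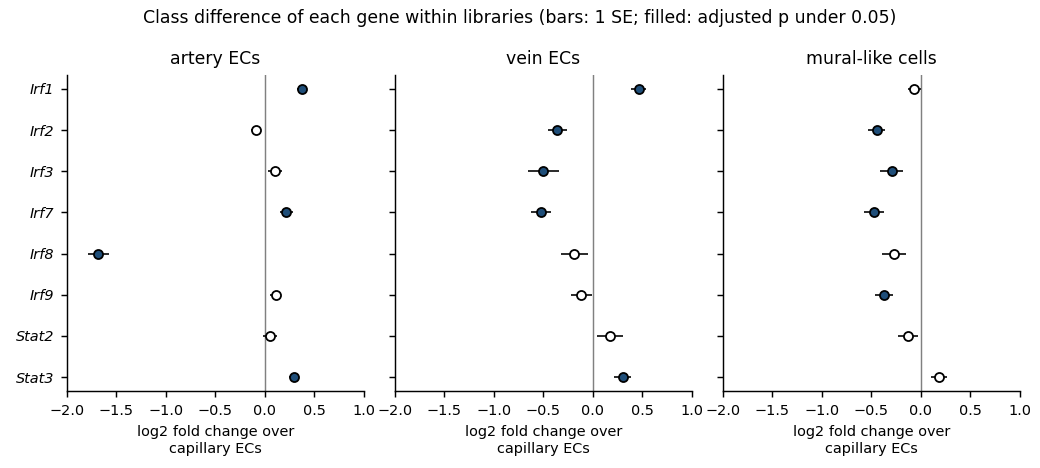
Log2 fold change of each gene over capillary ECs of the same library (horizontal axis) with 1 SE, for artery ECs, vein ECs and mural-like cells; filled points passed an adjusted p of 0.05. Irf8 in artery ECs, at -1.68, is the point farthest from 0.

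The diet comparison asked whether these genes changed in HFpEF. None of the 8 was called in all ECs, where edgeR called 1 of 13056 genes (0.00766%), in capillary ECs (1 of 12437, 0.00804%), in artery ECs (37 of 10616, 0.349%), in vein ECs (39 of 7942, 0.491%) or in mural-like cells (41 of 9749, 0.421%). At an unadjusted p under 0.05 the counts were 2, 1, 3, 1 and 3 of 8, in the same order, beside 17.7%, 17%, 10.9%, 10.3% and 10.1% of all genes. With cells of 1% or more hemoglobin UMIs left out, none of the 8 was called either. That setting kept 6678 of 6687 ECs in NC 1 and 6137 of 6143 in NC 2. It kept 4899 of 4912 in HFpEF 1 and 18800 of 19063 in HFpEF 2. With so few cells removed, it cannot show what the remaining hemoglobin RNA does to the values. DESeq2 called 0 of the 8, 8, 4, 5 and 2 members to which it gave an adjusted p. It called 2.44%, 1.93%, 1.70%, 0.518% and 2.47% of all genes to which it gave one. Those were 10653, 10595, 1413, 2316 and 770 genes. In artery ECs, vein ECs and mural-like cells they were far fewer than edgeR tested. The adjusted p of edgeR's quasi-likelihood test ran from 0.18 to 0.98 over these comparisons. A p that misses the threshold does not show that the levels were equal.

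Irf9 had the most even difference. Scaled by TMM, its level in capillary ECs was 69.2 CPM in NC 1, 64.5 in NC 2, 90.8 in HFpEF 1 and 81.9 in HFpEF 2. Both HFpEF libraries were above both NC libraries, and the same held in all ECs, artery ECs, vein ECs and mural-like cells. The log2 fold change was 0.37 ± 0.11 in capillary ECs (2 libraries a diet, edgeR adjusted p = 0.19). It was 0.36 ± 0.10 in all ECs, 0.32 ± 0.14 in artery ECs, 0.48 ± 0.25 in vein ECs and 0.60 ± 0.20 in mural-like cells, none of them called. These classes came from the same libraries, so they are not independent repeats. Across the settings tried, the capillary value of Irf9 stayed between 0.29 and 0.44.

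Irf8 was at 60.8, 46.5, 66.1 and 66.5 scaled CPM in capillary ECs of NC 1, NC 2, HFpEF 1 and HFpEF 2 (log2 fold change 0.31 ± 0.14, edgeR adjusted p = 0.32). Without NC 1 the difference was 0.51 and without NC 2 it was 0.13. In artery ECs, where it was scarce, the values were 20.4, 9.72, 27.8 and 24.1. The HFpEF libraries were higher there without overlap, by 0.74 ± 0.29 (edgeR adjusted p = 0.36). Without NC 1 the artery difference was 1.37 and was called (edgeR adjusted p = 0.00063), and with the replicate number as a block it was 0.92 (edgeR adjusted p = 0.023), although that number pairs nothing the labels name. In mural-like cells Irf8 was at 38.3, 44.97, 92.0 and 61.2 scaled CPM (0.78 ± 0.23, edgeR adjusted p = 0.18). It was called there without a filter on low counts (0.78, edgeR adjusted p = 0.043) and without HFpEF 2 (1.13, edgeR adjusted p = 0.013).

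Irf7 was also higher in both HFpEF libraries in all ECs, artery ECs, vein ECs and mural-like cells. In artery ECs it was at 98.7 and 109 scaled CPM in NC and 155 and 134 in HFpEF (0.46 ± 0.14, edgeR adjusted p = 0.23). Mural-like cells gave 52.4 and 73.4 against 114 and 96.4 (0.69 ± 0.20, edgeR adjusted p = 0.18), with a call without NC 2 (0.98, edgeR adjusted p = 0.019). Capillary ECs overlapped, at 85.1 and 103 against 100.3 and 109 (0.16 ± 0.12).

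Irf1 in capillary ECs was at 383 and 447 scaled CPM in NC and 452 and 543 in HFpEF, a difference of 0.26 ± 0.13 (edgeR adjusted p = 0.36) that ran from 0.12 to 0.39 with 1 library left out. The gap between NC 2 and HFpEF 1 is small, and on CPM without TMM scaling HFpEF 1 (445) lay under NC 2 (449). In artery ECs the Irf1 values were 476, 730.5, 609.9 and 657, in vein ECs 712, 668, 680.1 and 659, and in mural-like cells 367, 560.5, 524 and 513. All of these overlapped between the diets, with log2 fold changes of 0.07, -0.05 and 0.15. NC 1 was the low library in artery ECs and mural-like cells, and without it the difference was -0.20 and -0.11, against 0.42 and 0.50 without NC 2.

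Irf3 was the one gene of the 8 that was lower in both HFpEF libraries in any comparison, at 46.2 and 41.8 against 40.3 and 36.4 scaled CPM in capillary ECs (-0.21 ± 0.11, edgeR adjusted p = 0.37). Mural-like cells had the same order (-0.43 ± 0.24, edgeR adjusted p = 0.57), while vein ECs had the opposite (0.36 ± 0.32, edgeR adjusted p = 0.76), which turned to -0.20 with classes from clusters. Stat2 was higher without overlap in all and capillary ECs, by 0.22 ± 0.11 and 0.17 ± 0.11. Stat3 overlapped in 4 of the 5 comparisons and was separate only in vein ECs (229 and 167 against 287 and 272 scaled CPM, 0.48 ± 0.20, edgeR adjusted p = 0.42). Irf2 was at 121, 116, 120.5 and 120.2 scaled CPM in capillary ECs, with a difference of 0.02 ± 0.10.

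Both HFpEF libraries were above both NC libraries for 5 of the 8 genes in all ECs, where 24.8% of all genes did so. The counts were 4 of 8 in capillary ECs (24.5% of all genes), 3 in artery ECs (21.3%), 4 in vein ECs (20.1%) and 3 in mural-like cells (20%). Irf3 was below in all ECs (25.9% of all genes), capillary ECs (25.2%) and mural-like cells (20.1%). The median log2 fold change of the 8 was 0.20 in all ECs, 0.17 in capillary, 0.18 in artery, 0.36 in vein ECs and 0.24 in mural-like cells, beside medians from -0.0072 to -0.0034 over all genes tested. The 8 genes were chosen with earlier results of these data known, so these counts and medians are a description and no test of an excess.

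**Figure D3:**
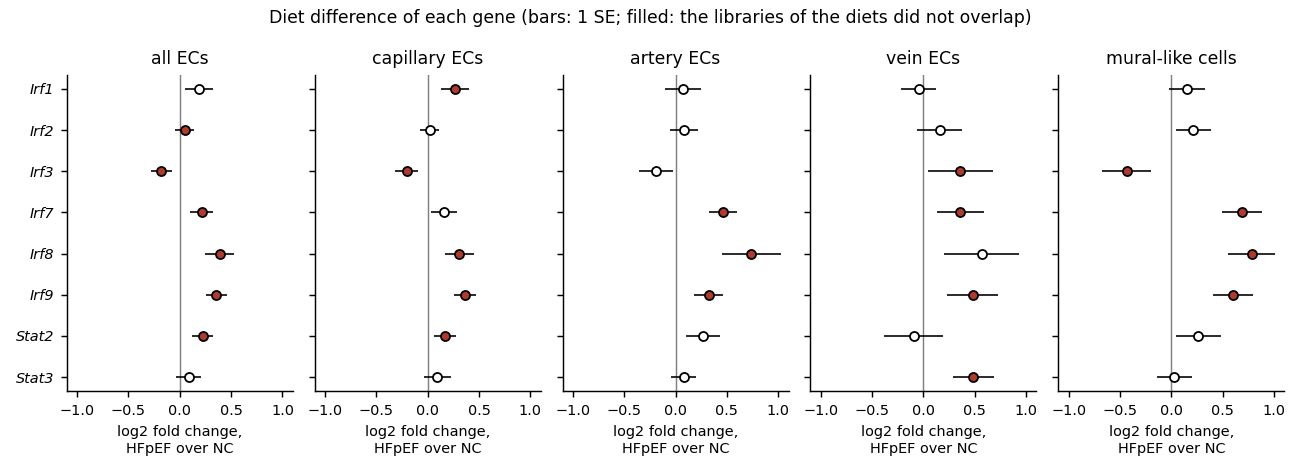
Log2 fold change of HFpEF over NC (horizontal axis) with 1 SE for each gene in all ECs, in 3 EC classes and in mural-like cells; filled points are genes whose 2 libraries of 1 diet lay wholly above or below the 2 of the other. Irf9 is filled in all 5 panels, from 0.32 to 0.60, and no point passed an adjusted p of 0.05.

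Whether the diet difference was unlike in artery or vein ECs and capillary ECs was tested by an interaction of class and diet. It called 14 of 11492 genes in artery ECs (0.122%) and 16 of 11376 in vein ECs (0.141%), and 0 of the 8 genes in either. Irf1 in vein ECs had a difference of -0.36 (unadjusted p = 0.0046, edgeR adjusted p = 0.56) and Stat3 there one of 0.34 (unadjusted p = 0.034, edgeR adjusted p = 0.93). In artery ECs the differences were 0.26 for Irf7 (unadjusted p = 0.030, edgeR adjusted p = 0.92) and 0.43 for Irf8 (unadjusted p = 0.044, edgeR adjusted p = 0.99), and these 4 differences were the ones with an unadjusted p under 0.05, beside 4.99% of all genes in artery and 5.24% in vein ECs. For Irf1 in artery ECs it was -0.18 ± 0.10 (unadjusted p = 0.083), and without NC 1 it was -0.37 and was called (edgeR adjusted p = 0.017).

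The pathway around the 8 genes was described with lists of genes chosen for this tissue, with results of these data already known. In all ECs and in capillary ECs edgeR called 0 genes of any list. At an unadjusted p under 0.05 and in capillary ECs, where 17% of all genes passed, 14 of 25 interferon gamma and IRF1 targets, 7 of 13 kinases, sensors and adaptors, 6 of 18 STAT3 targets, 5 of 16 immediate early and heat shock genes, 4 of 24 ISGF3 targets, 4 of 10 ligands and receptors and 4 of 15 inhibitors and partners passed. The ISGF3 targets were near that share. In all ECs (17.7% of all genes) these counts, in the same order of lists, were 14 of 25, 8 of 14, 6 of 19, 5 of 16, 6 of 24, 3 of 10 and 4 of 15. In capillary ECs DESeq2 called 1.93% of the genes to which it gave an adjusted p. Among them were 9 interferon gamma and IRF1 targets, 3 immediate early and heat shock genes and 2 STAT3 targets, all higher in HFpEF. It called 0 genes of the other lists there. In all ECs DESeq2 called 2.44% of the genes with an adjusted p. It called 11 interferon gamma and IRF1 targets, 4 STAT3 targets, 3 immediate early and heat shock genes and 1 ISGF3 target higher. It called 1 inhibitor or partner lower.

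The list closest to Irf1, the interferon gamma and IRF1 targets, had both HFpEF libraries higher for 18 of 25 genes in capillary ECs (24.5% of all genes) and lower for 0 (25.2%), with a median log2 fold change of 0.55. Gbp6, a guanylate-binding protein, was at 4.35 and 6.44 scaled CPM in NC and 16.8 and 13.8 in HFpEF (1.48 ± 0.22, edgeR adjusted p = 0.12). Cxcl10, a chemokine for CXCR3-bearing lymphocytes, was at 68.7, 99.0, 150 and 186 (1.01 ± 0.19, edgeR adjusted p = 0.14). In mural-like cells 6 of 23 rose by edgeR's test, which called 0.421% of all genes there. They were Gbp2, Gbp3 and Gbp4, the GTPase Iigp1, the MHC class I light chain B2m and Cxcl10. Their log2 fold changes ran from 0.76 for B2m to 2.18 for Cxcl10. With the replicate number as a block none of these 6 was called (edgeR adjusted p = 0.10 to 0.22), and in thinned cells B2m alone was. Cxcl10 and Iigp1 were not called without doublets either (edgeR adjusted p = 0.077 and 0.080), nor Gbp4 without HFpEF 2 (0.20). In vein ECs the chemokine Cxcl9 (56.2 and 60.0 against 190 and 116, edgeR adjusted p = 0.030) and the GTPase Igtp (90.6 and 93.6 against 199 and 168, edgeR adjusted p = 0.041) rose. Neither was called by DESeq2 (adjusted p = 0.12 and 0.31), with the block (edgeR adjusted p = 0.077 and 0.12) or without NC 2 (edgeR adjusted p = 0.061 and 0.15). Cxcl9 was also not called with classes from clusters (edgeR adjusted p = 0.23), nor Igtp without NC 1 (edgeR adjusted p = 0.089). In artery ECs 0 of 24 were called by edgeR (0.349% of all genes) and 13 had an unadjusted p under 0.05 (10.9% of all genes). DESeq2 called 1 of 11 there (1.70% of the genes to which it gave an adjusted p).

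The ISGF3 targets are genes that the complex with STAT2 and IRF9 switches on. In capillary ECs 12 of 24 were higher and 1 was lower in both HFpEF libraries, beside 24.5% and 25.2% of all genes. Their median log2 fold change was 0.19. The antiviral genes Ifit2 (27.7 and 35.8 against 52.9 and 66.0 scaled CPM, edgeR adjusted p = 0.037) and Ifi44 (29.9 and 30.8 against 49.2 and 57.4, edgeR adjusted p = 0.037) rose in artery ECs. Ifit1 (25.1 and 52.1 against 87.0 and 94.8) and Cmpk2 (19.2 and 26.0 against 51.9 and 49.3) rose in mural-like cells, both with an edgeR adjusted p of 0.049. The artery calls were lost without a low-count filter (edgeR adjusted p = 0.20 for Ifit2 and 0.19 for Ifi44), in thinned cells (0.13 and 0.17), with classes from clusters (0.11 and 0.17) and without HFpEF 2 (0.44 and 0.46), and for Ifi44 also without doublets (0.058). The mural calls were lost with the block (0.12 for Ifit1 and 0.16 for Cmpk2), in thinned cells (0.85 and 0.65) and without NC 1 (0.083 and 0.093), and for Cmpk2 also without doublets, with clusters and without HFpEF 2 (0.071, 0.065 and 0.074). DESeq2 gave none of these 4 an adjusted p. In vein ECs 0 of 23 were called by edgeR (0.491% of all genes). DESeq2 called 0 of 10 there (0.518% of the genes to which it gave an adjusted p). At an unadjusted edgeR p under 0.05 there were 3, near the share of 10.3% of all genes. Ifi35 was the member of this list that was lower in both HFpEF libraries in capillary ECs, by 0.20 (74.3 and 79.4 against 66.8 and 67.1).

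Of the upstream genes, the receptor chain Ifngr1 was lower in both HFpEF libraries in capillary ECs, at 279 and 275 against 217 and 214 scaled CPM (-0.36 ± 0.10, edgeR adjusted p = 0.18), and Ifngr2, the other chain of the interferon gamma receptor, was higher (34.0 and 31.6 against 39.5 and 45.6, 0.39 ± 0.11, edgeR adjusted p = 0.19). Il6, which signals through STAT3, rose in vein ECs (82.6 and 58.8 against 153 and 161, edgeR adjusted p = 0.020) and mural-like cells (20.6 and 25.6 against 58.5 and 57.9, edgeR adjusted p = 0.017). The Il6 call was lost with the block (edgeR adjusted p = 0.077 in vein ECs and 0.10 in mural-like cells) and in thinned cells (0.068 and 0.63). In vein ECs it was also lost with DESeq2 (adjusted p = 0.22), without NC 2 (0.19) and without HFpEF 2 (0.099), and in mural-like cells without doublets (0.062). The RNA sensor Ifih1 was at 33.6 and 38.5 against 54.1 and 48.3 in capillary ECs (edgeR adjusted p = 0.16). Irf2bp2, a corepressor that binds IRF2, was lower in capillary ECs, at 167 and 120.0 against 92.2 and 102 (-0.56 ± 0.16, edgeR adjusted p = 0.19).

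Of the STAT3 targets, 6 of 18 were higher and 2 lower in both HFpEF libraries in capillary ECs, beside 24.5% and 25.2% of all genes. The proto-oncogene Myc rose in artery ECs (2.59 and 0.948 against 9.28 and 10.5 scaled CPM, edgeR adjusted p = 0.037) and vein ECs (36.7 and 34.8 against 92.5 and 83.4, edgeR adjusted p = 0.041). DESeq2 gave Myc no adjusted p in either class, and Myc was not among the genes tested in thinned cells of either. Neither Myc call held with classes from clusters (edgeR adjusted p = 0.13 in artery and 0.069 in vein ECs) or without HFpEF 2 (0.36 and 0.12). The artery call was also lost without a low-count filter (0.16), and the vein call with the block (0.14) and without NC 2 (0.15). In capillary ECs the largest rises without overlap were Ccnd1 (205 and 268 against 302 and 482, 0.73 ± 0.23, edgeR adjusted p = 0.20) and Cebpb (67.8 and 63.7 against 92.1 and 114, 0.66 ± 0.13, edgeR adjusted p = 0.14). The falls were the survival gene Bcl2l1, at 198 and 111 against 85.5 and 89.0 (-0.82 ± 0.25, edgeR adjusted p = 0.19), and Junb (-0.11 ± 0.12, edgeR adjusted p = 0.69). The heat shock genes Hsph1, Hspa1a and Hspa1b rose in artery ECs, vein ECs and mural-like cells by edgeR's test. In vein ECs DESeq2 called none of them (adjusted p = 0.22, 0.42 and 0.64 for Hsph1, Hspa1a and Hspa1b), in artery ECs it called Hspa1a and not Hsph1 or Hspa1b (0.19 and 0.27), and in mural-like cells it called Hspa1a and not Hspa1b (0.11) and gave Hsph1 no adjusted p. Without a low-count filter none of the artery calls held (edgeR adjusted p = 0.19, 0.13 and 0.27). With the block Hspa1a and Hspa1b were not called in vein ECs (0.12 and 0.14) or mural-like cells (0.10 for both). Without NC 2 the same pair was not called in vein ECs (0.15 and 0.081), and Hsph1 and Hspa1b were not in artery ECs without HFpEF 2 (0.084 and 0.13) or with classes from clusters (0.079 and 0.089), nor Hspa1b there without doublets (0.057). Hspa1b was at 2314 and 950.5 against 3953 and 5799 in artery ECs (edgeR adjusted p = 0.049). Dnajb1, another gene of this list, rose in mural-like cells (380 and 376 against 708 and 542, edgeR adjusted p = 0.049). That call held with DESeq2 (adjusted p = 0.0071) and was lost with the block and in thinned cells (edgeR adjusted p = 0.16 for both). Such genes respond to stress, including that of cell isolation. In capillary ECs Hsph1 was at 59.0 and 27.2 against 148 and 204 without passing the test (edgeR adjusted p = 0.13).

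Single cells were then compared after each was thinned to 1000 UMIs, which kept 4903 of 5114, 4570 of 4740, 3350 of 3968 and 11511 of 15031 capillary ECs. An Irf1 UMI was found in 25.5%, 28.5%, 29.5% and 36.1% of the thinned cells of NC 1, NC 2, HFpEF 1 and HFpEF 2, and in 54.6%, 59.0%, 42.6% and 49.4% before thinning, when the NC cells were deeper. For Irf8 the thinned shares were 5.53%, 4.05%, 5.31% and 5.86%, against 18.0%, 15%, 10.0% and 11.6% unthinned. In artery ECs the thinned Irf8 shares were 1.83%, 1.15%, 4.61% and 2.79%. Free RNA can give a UMI to a cell that does not express a gene, and its part in these shares was not tested.

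Within capillary ECs, Irf7 and Stat2 were highest in cells rich in ISGF3 target UMIs. In cells with 0 such UMIs, Irf7 was at 48.9, 51.7, 58.7 and 53.8 CPM, in the library order used above. In cells with 4 or more it was at 211, 223, 189 and 202. Stat2 went from 27.6, 30.5, 44.8 and 34.8 to 83.4, 60.3, 78.4 and 73.7. Both were higher in the target-rich cells of 4 of 4 libraries. Irf9 was higher in 3 of 4, going from 56.0, 63.7, 92.7 and 68.1 to 93.9, 90.9, 90.0 and 96.5. In cells with 0 targets both HFpEF values of Irf9 were above both NC values, on 63, 48, 60 and 129 UMIs in the library order. The nearest of them, 63.7 in NC 2 and 68.1 in HFpEF 2, lay close for so few UMIs. In cells with 4 or more the diets overlapped. This contrast was not tested, and the share of all genes with such an order was not counted. Irf1, Irf8 and Stat3 were also higher in the target-rich cells of 4 of 4 libraries, and Irf1 went from 331, 341, 315 and 507 to 402, 567, 514 and 630. Irf2 and Irf3 had no order that held in 4 of 4 libraries. Cells with 4 or more target UMIs made up 15.6% and 23.6% of the NC and 20.6% and 24.0% of the HFpEF cells, which overlapped.

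Irf1, Irf8 and Stat3 varied more with the immediate early and heat shock genes, a list that holds Fos, Jun, Egr1 and Hspa1a among others. In capillary ECs with under 10 UMIs of the list, Irf1 was at 92.3, 107, 134 and 137 CPM. It was higher in each next bin, up to 605, 824, 600.0 and 764 in cells with 40 or more. Irf8 went from 20.4, 9.91, 32.8 and 23.9 to 78.6, 65.1, 78.5 and 80.9. Stat3 went from 126, 90.2, 78.7 and 138 to 236, 213, 189 and 212. The first and last bins had this order in 4 of 4 libraries for all 3 genes. Irf9 had it too with smaller steps, from 61.1, 60.5, 82.0 and 68.5 to 66.1, 78.3, 98.1 and 76.5. Irf2, Irf3, Irf7 and Stat2 had none that held in 4 of 4 libraries.

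The list's UMIs themselves differed with diet. They averaged 29.3 and 25.3 per 1000 UMIs in capillary ECs of NC 1 and NC 2 and 35.7 and 37.2 in HFpEF 1 and HFpEF 2. Cells with 40 or more made up 27.8% and 21.5% of the NC cells and 39.6% and 43.2% of the HFpEF cells. Within a bin, the diets mostly overlapped for Irf1, which was at 372 and 483 in NC and 366 and 497 in HFpEF in cells with 20 to 39 such UMIs. In cells with under 10, both HFpEF values of Irf1 were above both NC values, on 68, 108, 41 and 132 UMIs in the library order. That order was not tested. How far cell isolation, diet and depth each set the list's UMIs cannot be told apart.

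**Figure D4:**
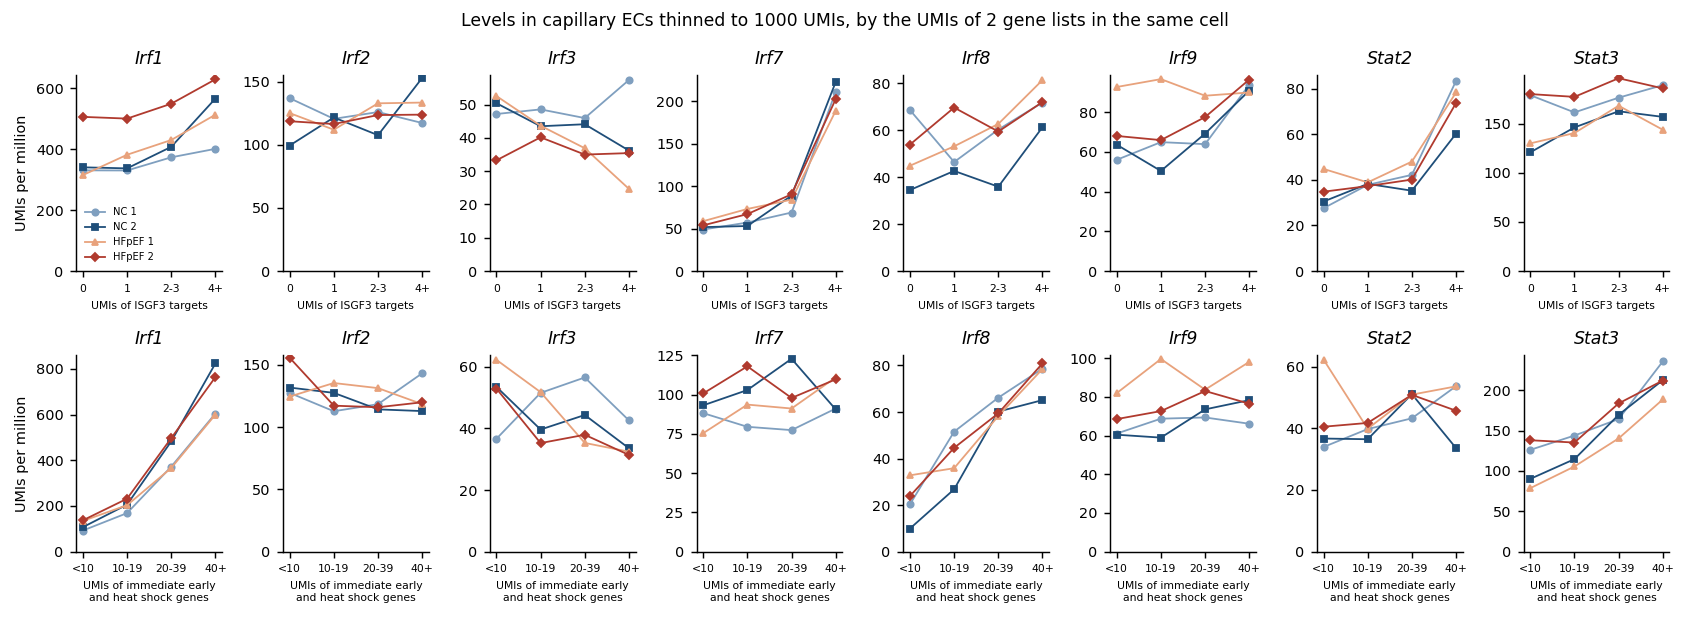
Level of each gene (vertical axis, CPM) in capillary ECs thinned to 1000 UMIs, by the number of UMIs of ISGF3 targets (upper row) or of immediate early and heat shock genes (lower row) in the same cell; each line is 1 library. Irf7 is between 189 and 223 in cells with 4 or more ISGF3 target UMIs, and Irf1 is between 600.0 and 824 in cells with 40 or more immediate early and heat shock UMIs.

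Pairs of genes found in the same thinned capillary EC gave a like picture. The odds ratio of finding both was taken in each library, with 1 meaning no relation, and it is a description without a test. Irf7 with Ifit3, an ISGF3 target, had the highest median, 3.53 (2.96 to 5.27 over the 4 libraries). An Irf7 UMI was found in 20.9% to 31.2% of cells with an Ifit3 UMI and in 6.80% to 8.54% of the others. Stat2 with Ifit3 reached 2.67 (1.66 to 3.23) and Irf9 with Ifit3 1.81 (1.34 to 2.06). Irf3 with Ifit3 was under 1 in 4 of 4 libraries, but from 1 to 12 shared cells.

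Irf1 was found most with Cxcl10, at a median odds ratio of 3.00 (2.46 to 4.65). An Irf1 UMI was in 52.9% and 63.3% of Cxcl10-positive NC cells and 50% and 56.1% of the HFpEF ones, against 24.6% and 27% and 28.1% and 34.1% of Cxcl10-negative cells. Irf1 with Socs3 was at 1.86 (1.80 to 2.35) and with Isg15 at 1.75 (1.60 to 1.87), while Irf1 with Ifit3 was at 1.03 and with Gbp2 at 1.11. Among the 8 genes themselves, Irf1 with Irf8 (1.57, 1.299 to 2.21), Irf9 with Stat2 (1.51, 1.105 to 2.04) and Irf1 with Stat3 (1.47, 1.28 to 1.57) had the highest medians. Irf9 with Stat2 rested on 12 to 48 cells with both.

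**Figure D5:**
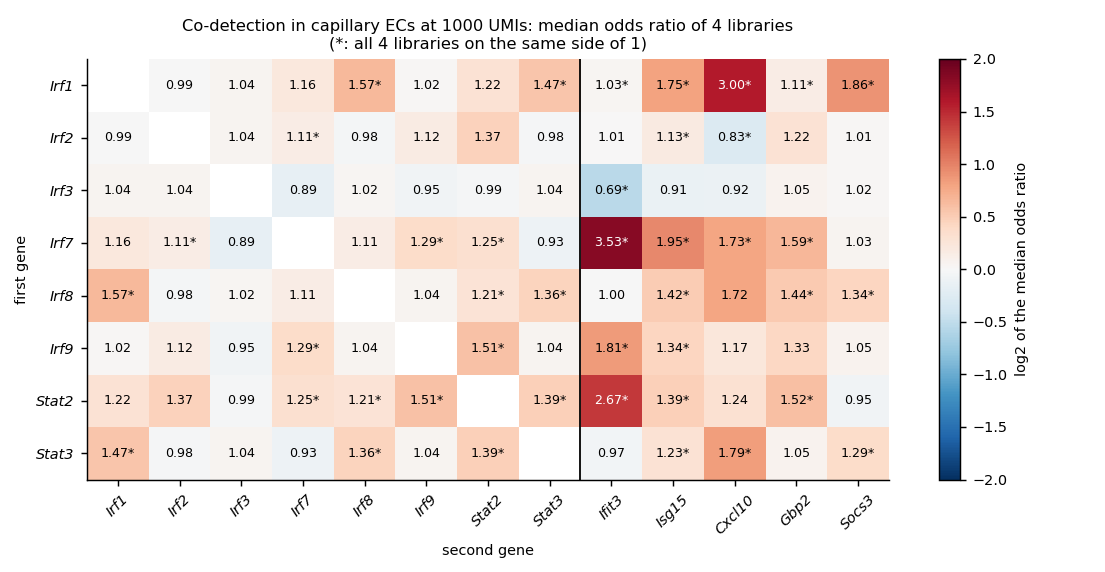
Median odds ratio over 4 libraries of finding 2 genes in the same capillary EC at 1000 UMIs; rows are the 8 genes, columns the 8 genes and 5 targets, the colour scale is the log2 of the ratio, and a star marks pairs on the same side of 1 in all 4 libraries. Irf7 with Ifit3 (3.53) and Irf1 with Cxcl10 (3.00) stand highest.

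In clusters built without the 8 genes, Irf7 was highest among the capillary clusters in a capillary cluster of 3356 cells led by Ifit3, Ifit2 and Ifit1, at 352 and 302 CPM in NC and 219 and 238 in HFpEF. Both HFpEF values were below both NC values there, unlike the order in all ECs. This Ifit-led cluster held 3.73% and 6.80% of the kept cells of NC 1 and NC 2. Of HFpEF 1 and HFpEF 2 it held 9.28% and 10.2%. Its membership thus differed with diet, and what this did to the Irf7 values was not tested. Irf1 and Irf8 were highest among the capillary clusters in one of 2708 cells led by Cxcl10, Cxcl2 and Plaur. There Irf1 was at 959.5 and 1075 CPM in NC and 979.7 and 960.1 in HFpEF, and Irf8 at 131 and 143 against 140 and 138, so the diets overlapped within it. That cluster held 2.47% and 3.53% of the kept cells of NC 1 and NC 2 and 6.47% and 9.30% of those of HFpEF 1 and HFpEF 2. In a capillary cluster of 3704 cells led by Timp4, Irf1 was at 115 and 126 CPM in NC and 177 and 184 in HFpEF. Timp4 also led another capillary cluster, of 3020 cells, whose values are not listed here. How many genes had such an order within a cluster was not counted.

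The other classes were small. In endocardial ECs Irf1 was at 1070.4, 727, 179 and 431 CPM on 223, 186, 6 and 81 UMIs, and Irf8 at 154, 106 and 101 CPM in the libraries other than HFpEF 1, where 0 UMIs were found in 14 cells, which allows up to 110.1 CPM by the exact Poisson interval. Myeloid-like cells held Irf8 at 303, 139, 81.9 and 60.6 CPM on 9, 23, 4 and 15 UMIs, and B cell-like cells at 172, 56.7, 102 and 121 CPM on 12, 11, 5 and 26 UMIs. Fibroblast-like cells held 34.8 to 71.2 CPM of Irf8 on 4 to 21 UMIs. With so few UMIs no comparison was made for these classes.

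The genes whose pattern was most like each of the 8 were sought over 16 sums, 4 libraries by capillary, artery, vein and mural-like cells, centred within each library (log2 of CPM plus 10). Points of 1 library share its depth, and the correlation is a description. Over 8154 genes, Irf1 was nearest to Msn (Pearson's r = 0.93), Nfkbia (0.92) and Zfp36 (0.92). Irf9 was nearest to Rtp4 (0.90), Prex2 (0.89) and Sgk3 (0.88), and Irf3 to 2310001H17Rik (0.92), Tbk1 (0.88) and Cep350 (0.87). For Irf7 they were Rfxap (0.96), Cecr2 (0.95) and Pik3cb (0.94), for Irf8 Bmp2k (0.91), Agfg2 (0.90) and Ptprk (0.90), and for Irf2 Cep85l (0.92), Uchl3 (0.92) and Gas2 (0.91). Stat2 was nearest to Tmem161a (0.91), Tshz1 (0.83) and Eps15 (0.83), and Stat3 to Dnajc5 (0.91), Golim4 (0.90) and Ankrd27 (0.89).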

How the data were processed

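Single-cell 3′ libraries of RFP-positive left ventricular cells were made by the authors with Cell Ranger 5.0.1 on mm10 after fastp, per the submitters' processing notes, and the deposited values are whole UMI counts per gene and cell, not normalized. Cells with more than 200 genes and under 20% mitochondrial UMIs were kept. Classes were set by marker gates (ECs needed UMIs of 2 or more endothelial markers), a gate on capillary, artery, vein and mural markers followed, and Louvain clusters were the alternative. A cluster that met no rule for another class counted as capillary. Doublets stayed in the main values. UMIs were summed per library and class and tested with edgeR 4.0.16 (quasi-likelihood, TMM, filterByExpr, Benjamini-Hochberg over all genes tested) in R 4.3.3. Diet was compared over 2 and 2 libraries, and classes within libraries with the library as a block. DESeq2 1.42.0 was an alternative, as were no low-count filter, a replicate block, thinned cells and leaving out each library. Others left out cells with 1% or more hemoglobin UMIs or called doublets (Scrublet in scanpy 1.11.5). Only the diet test in all ECs was checked on simulated counts. Per-cell values used cells thinned to 1000 UMIs, which left out shallower cells. Intervals cover counting error only. The members and lists were chosen with earlier results of these data known. One gene of the pathway is not reported here. Lists were summarised by counts, and the named list genes were those called, and otherwise taken from the largest 2 rises and falls with a mean of at least 10 CPM. Of 31253 gene identifiers, 31107 (99.5%) matched GENCODE M21. Figures were drawn with matplotlib 3.10.9.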

Additional observations from a re-analysis of the deposited data

How the results depend on the processing

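Counts of genes called by diet depended on the setting. In all ECs, 1 became 260 with DESeq2, 984 without a low-count filter, 333 with a replicate block and 53 in thinned cells. In capillary ECs, 1 became 205 with DESeq2, 860 without the filter and 32 in thinned cells. In artery ECs, 37 became 24 with DESeq2, 4 without the filter, 151 with the block and 19 with classes from clusters, and in vein ECs 39 became 12, 110, 9 and 85. In mural-like cells, 41 became 19, 169, 1 and 77, and 5 in thinned cells. DESeq2 gave an adjusted p to only 1413 genes in artery ECs, 2316 in vein ECs and 770 in mural-like cells. edgeR tested 10616, 7942 and 9749 there, so the DESeq2 counts rest on fewer genes. Thinning also lowered the class counts, to 1937 for artery, 1181 for vein and 3214 for mural-like cells, and the interaction counts to 4 and 0. With 1 library left out, the counts ran from 1 to 48 in all ECs, 3 to 464 in capillary, 20 to 277 in artery and 32 to 136 in vein ECs and 85 to 136 in mural-like cells, 2812 to 3150, 1681 to 2339 and 4555 to 5516 for the classes, and 3 to 80 and 12 to 34 for the interactions. The cause of these shifts was not tested. Thinning and leaving out a library use fewer UMIs or samples. A diet fit with 1 library left out assumes that the lone library varies like the other group.

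For the 8 genes, 401 diet values kept direction and gained no call, 22 turned and 5 became calls. DESeq2 values without an adjusted p were counted by direction alone. DESeq2 gave one to 4, 5 and 2 of the 8 genes in artery ECs, vein ECs and mural-like cells. Of the class values 183 kept, 18 lost the call, 8 gained it and 7 turned. Diet differences turned for Irf3 in artery ECs when thinned (0.027), Irf2 there with clusters (-0.0015), Stat2 in vein ECs with the replicate block (0.015) and, with clusters in vein ECs, Irf3 (-0.20), Stat2 (0.052), Irf2 (-0.12) and Irf1 (0.18). Irf1 also turned there when thinned (0.054), and Irf1 (-0.021) and Stat3 (-0.034) in mural-like cells without doublets. Class differences turned for Stat2 when thinned in artery (-0.24) and vein ECs (-0.36), for Stat2 in vein ECs (-0.24) and Irf3 in artery ECs (-0.013) with clusters, and for Stat3 in mural-like cells when thinned (-0.05). With 1 library left out, the ranges that crossed 0 were -0.027 to 0.20 for Stat3 in all ECs, -0.028 to 0.23 for Stat3 and -0.011 to 0.049 for Irf2 in capillary ECs, -0.20 to 0.42 for Irf1 in artery ECs, -0.35 to 0.21 for Stat2 and -0.28 to 0.30 for Irf2 in vein ECs, and -0.11 to 0.50 for Irf1, -0.15 to 0.24 for Stat3 and -0.071 to 0.40 for Stat2 in mural-like cells. They were -0.012 to 0.11 for Stat2 in artery against capillary ECs, -0.15 to 0.0037 for Irf1 in mural-like cells against capillary ECs and -0.37 to 0.020 for the artery interaction of Irf1. At 500 UMIs the shares of capillary ECs with a UMI fell, to 15.4% in NC and 19.1% in HFpEF for Irf1, 4.54% and 4.41% for Irf7 and 2.35% and 2.97% for Irf8. Numbers pair no libraries by the labels: deviations of NC 1 and HFpEF 1 correlated at -0.048 over 7768 genes, and among the 8 genes the replicate block added 1 call, Irf8 in artery ECs. Depth limits most the vein, mural-like and smaller classes.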
